A study of Mus musculus with 150 samples.

Results

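The 4 genes described here encode receptors for neurotrophins, and they were taken by name from the 54082 genes of the count table: Ntrk2, Ntrk3, Ngfr and Sort1. Each was followed through 150 single somatosensory neurons of CD1 mice, of which 45 were labelled as innervating hairy skin, 1 both skin types and all others glabrous (hairless) skin. The neurons came from 10 litters, 26 hairy and 90 glabrous cells at postnatal day 5 and 19 hairy and 14 glabrous cells at postnatal day 4; no genetic change or drug is named in the labels for any group. The labels do not say how a neuron was assigned to its skin type, and litter names such as C_D that join letters were each taken as 1 litter. The litter served as the replicate, and 7 of them had 2 or more cells from either skin.

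Neurotrophins are secreted proteins that keep sensory neurons alive and shape their growth and identity. Ntrk2 encodes TrkB, the tyrosine kinase receptor for BDNF and neurotrophin 4, and Ntrk3 encodes TrkC, the receptor for neurotrophin 3. Ngfr encodes p75NTR, which binds every neurotrophin and has no kinase, and Sort1 encodes sortilin, a sorting receptor that pairs with p75NTR to bind the uncleaved proneurotrophins. In dorsal root ganglia, TrkB is known from A-delta low-threshold mechanoreceptors and TrkC from proprioceptors and some A-beta mechanoreceptors.

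In the GENCODE annotation of GRCm38, Ntrk2 lies on the plus strand at chr13:58806569-59133970 and has 10 transcripts, of which 7 are protein coding, with open frames of 466 to 821 codons. Ntrk3 lies on the minus strand at chr7:78175959-78738012 and has 20 transcripts, 6 of them protein coding, with frames of 82 to 864 codons. Ngfr lies on the minus strand at chr11:95568818-95587735 and has 1 transcript of 427 codons. Sort1 lies on the plus strand at chr3:108284082-108361511 and has 3 transcripts, 2 of them protein coding, with frames of 825 and 858 codons. The table gives 1 expected count per gene, so that full-length receptors and the known forms of TrkB and TrkC that lack the kinase are summed. Levels are given as CPM, a gene's count scaled to a fixed total per cell, and CPM values of different genes are not on 1 scale of mRNA number.

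Cells held between 395811 and 1053854 counts, the median being 703718 in hairy and 761491.5 in glabrous cells. Between 4360 and 15865 genes were detected per cell, and 6 cells had fewer than 10000. Plate 1 held 10 hairy and 85 glabrous cells, and plate 2 held 35 hairy and 19 glabrous cells. Cells fell into 9 clusters, made without the 4 genes, and clusters 1, 2, 6 and 8 took no class name under the marker rule. RNA of other cell types was present. The summed markers of satellite glia and non-myelinating Schwann cells had a median of 2214 CPM in hairy and 1597 CPM in glabrous cells, those of myelinating Schwann cells 2969 CPM in hairy and 1413 CPM in glabrous cells, and those of fibroblasts 431 CPM in hairy and 174 CPM in glabrous cells.

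All 4 genes were found in most cells. Ntrk2 ran from 0 to 442 CPM in hairy cells, with a median of 37.6, and from 0 to 1235 CPM in glabrous cells, with a median of 29.5. Ntrk3 ran from 0 to 456 CPM in hairy cells, with a median of 32.3, and from 0 to 1318 CPM in glabrous cells, with a median of 75.6. The skin types overlapped for both Trk genes, and the highest values of both lay in glabrous cells. Ngfr ran from 0 to 383 CPM in hairy cells, with a median of 35.5, and from 0 to 298 CPM in glabrous cells, with a median of 105.2. Sort1 ran from 0 to 141.5 CPM in hairy cells, with a median of 22.998, and from 0 to 118.8 CPM in glabrous cells, with a median of 19.1. No count was found for Ntrk2 in 31 cells, for Ntrk3 in 23, for Sort1 in 9 and for Ngfr in 7. A single count was worth 0.949 CPM in the deepest and 2.53 CPM in the shallowest cell, so a cell without a count may hold the mRNA below that level.

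**Figure D1:**
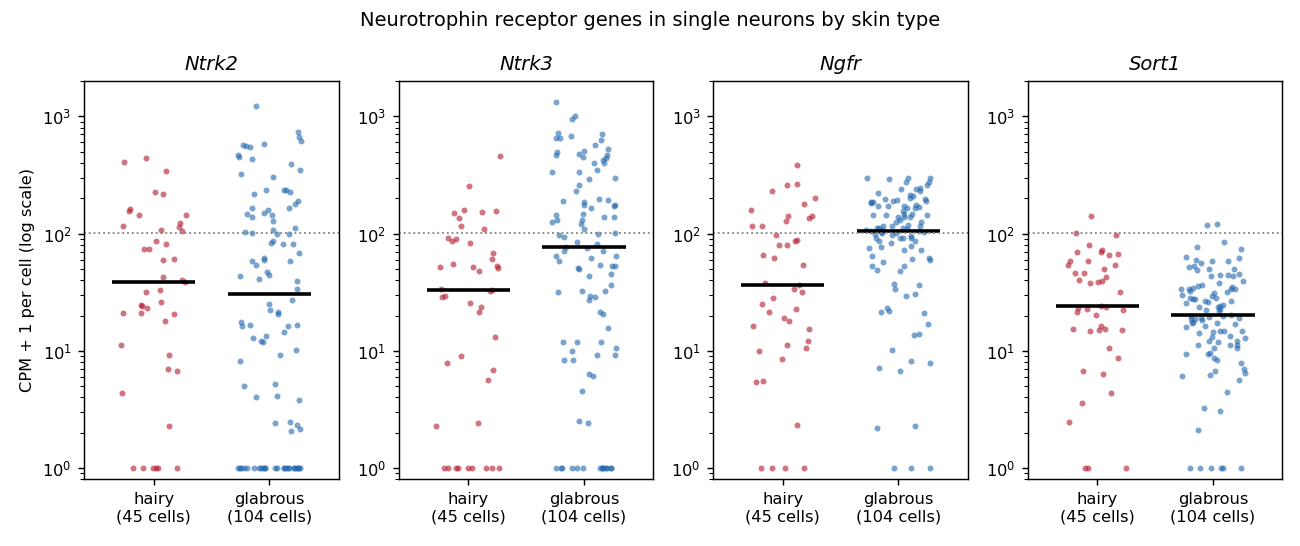
CPM + 1 per cell on a log scale for each gene, with hairy cells in red on the left and glabrous cells in blue on the right; black lines are medians and the dotted line marks 100 CPM. The groups overlap for every gene, and the Ngfr medians are 35.5 CPM in hairy and 105.2 CPM in glabrous cells.

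Across clusters the Trk genes were high in different neurons. Ntrk3 was highest in cluster 6, where it ran from 290 to 1318 CPM in 16 cells with a median of 517. This cluster took no class name, since 4 proprioceptor markers (Pvalb, Runx3, Spp1, Esrrg) and 3 markers of A-fibre low-threshold mechanoreceptors were enriched in it. Ntrk2 was highest in cluster 7, which took the name A-fibre low-threshold mechanoreceptor-like, with 323 to 735 CPM in 14 cells and a median of 457. Averaged over litters with at least 2 cells in the cluster, Ntrk3 in cluster 6 was 640 ± 108.6 CPM (SD, n = 3 litters) and Ntrk2 in cluster 7 was 473 ± 75.02 CPM (SD, n = 4 litters). In cluster 6 Ntrk2 averaged 51.98 ± 36.4 CPM, and in cluster 7 Ntrk3 averaged 125.5 ± 26.4 CPM. These 2 clusters did not overlap in either Trk gene: the lowest Ntrk3 value in cluster 6 was above the highest in cluster 7, 191 CPM, and the highest Ntrk2 value in cluster 6, 234 CPM, was below the lowest in cluster 7. Both clusters were singled out for the highest Ntrk3 or Ntrk2, so part of this separation follows from that choice. How many other genes separate them was not counted. These are descriptions of clusters and carry no test.

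Below those peaks the order of clusters was not resolved. Next for Ntrk3 came cluster 1 at 199 ± 136.5 CPM (SD, n = 6 litters) and cluster 8 at 195 ± 33.6 CPM (SD, n = 3 litters), which lay within each other's spread. Next for Ntrk2 came clusters 4 and 8, at 151 ± 136.2 and 150.1 ± 76.7 CPM, also within each other's spread. Cluster 2, at 99.3 ± 48.1 CPM (SD, n = 6 litters), lay within the spread of both. By median the order differed, with 138.1 CPM in cluster 8, 104.6 CPM in cluster 2 and 38.8 CPM in cluster 4. Cluster 8 was led by haemoglobin genes (Hba-a1, Hbb-bs, Hba-a2) with Acta2 and Igfbp7. Its satellite glia marker sum had a median of 6588 CPM, against 1434 CPM in the cells of all other clusters, and its pan-neuronal marker sum ran from 235.7 to 13479 CPM with a median of 9379, against a median of 12729 CPM elsewhere; their part in its levels was not tested. Cluster 4 was C-fibre low-threshold mechanoreceptor-like, and its highest Ntrk2 value, 1235 CPM, came from 1 glabrous cell. Clusters 5 and 9, both nociceptor-like, were low in Ntrk3. In cluster 5, peptidergic-like with Tac1 and Trpv1, the medians were 8.73 CPM for Ntrk2 and 1.47 CPM for Ntrk3, and in cluster 9, non-peptidergic-like with Mrgprd, the median of Ntrk3 was 0. Cluster 3, the other peptidergic-like cluster, rests on Calca, Calcb and Smr2 and is led by interferon-induced genes such as Rsad2 and Ifit3, and its medians were 32.6 CPM for Ntrk2 and 27.7 CPM for Ntrk3.

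Ngfr and Sort1 had other patterns. Ngfr was highest in clusters 1, 3 and 7, with medians of 141.4, 141.96 and 136.2 CPM, and their litter means of 137.9 ± 39.3, 149.4 ± 17.5 and 140.4 ± 55.8 CPM did not differ beyond their spread. Cluster 2, at 121.6 ± 55.9 CPM (SD, n = 6 litters), lay within the spread of clusters 1 and 7. Ngfr was lowest in clusters 4 and 9, with litter means of 16.6 ± 9.15 and 8.18 ± 4.83 CPM. Sort1 was highest in clusters 7 and 4, with litter means of 60.9 ± 31.2 and 46.9 ± 8.71 CPM, and lowest in cluster 1 at 10.7 ± 1.29 CPM. The means of clusters 7 and 4 lay within each other's spread, as did those of cluster 4 and cluster 6 (38.9 ± 3.47 CPM) and those of cluster 1 and cluster 3 (12.97 ± 2.90 CPM). Cluster 1 was thus among the highest for Ngfr and the lowest for Sort1, and cluster 4 among the lowest for Ngfr and the highest for Sort1.

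**Figure D2:**
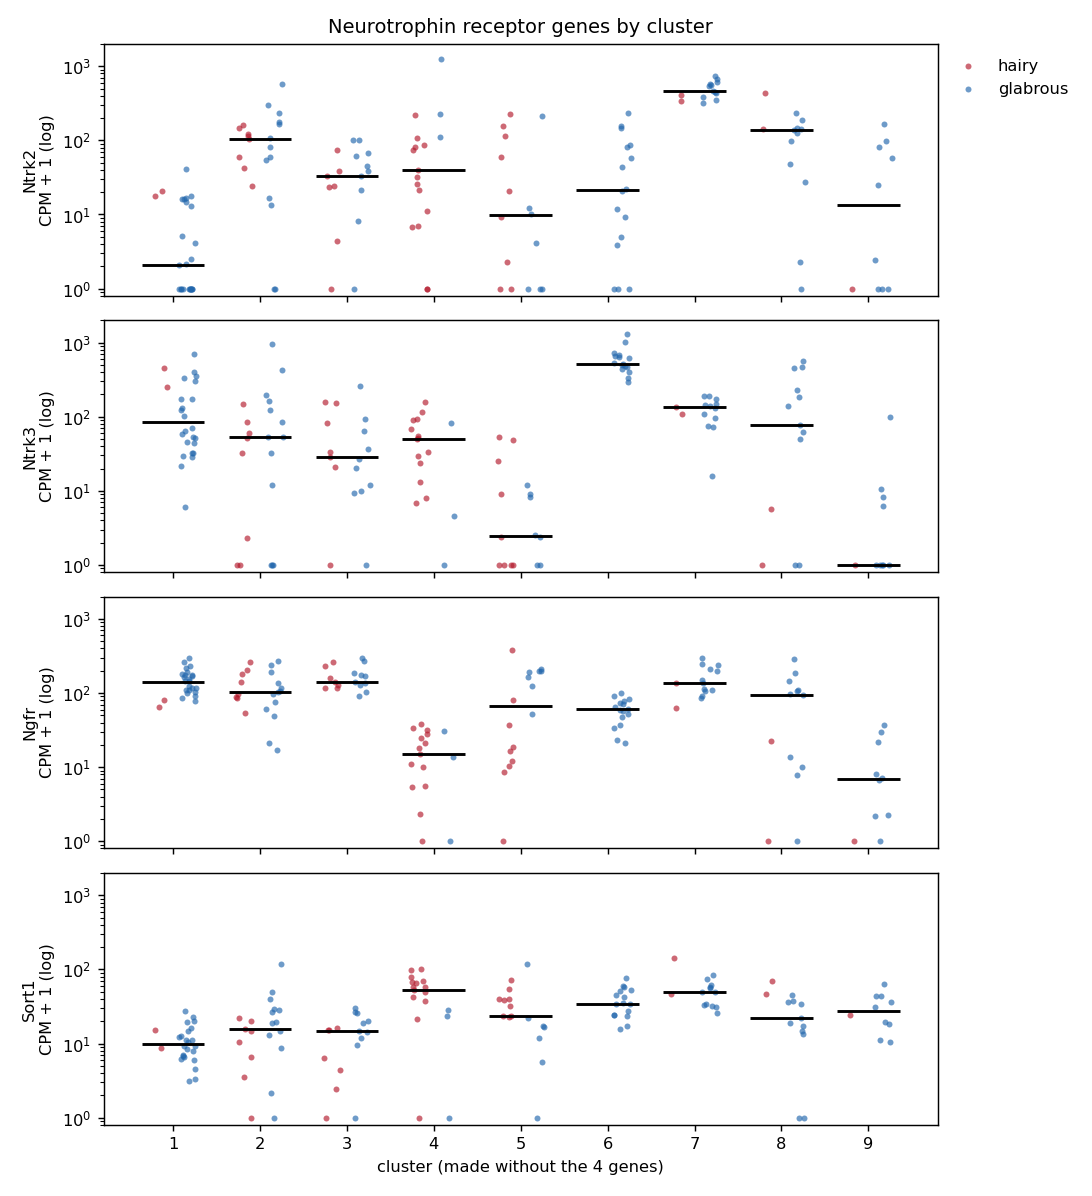
CPM + 1 per cell on a log scale by cluster for the 4 genes, with hairy cells (red) left of glabrous cells (blue) and black lines for cluster medians. Ntrk3 stands highest in cluster 6 (median 517 CPM), Ntrk2 in cluster 7 (457 CPM), and Ngfr is low in clusters 4 and 9.

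The 2 Trk genes were neither tied together nor apart over the cells as a whole. The Spearman correlation of Ntrk2 with Ntrk3 over 150 cells was 0.02, and it was positive in 5 and negative in 5 of 10 litters. At 100 CPM or more, 19 cells held both, beside 17.9 cells that the product of the 2 shares gives. At 200 CPM or more, a single cell held both, beside 5.17 from the product, and it belonged to cluster 6. All 14 cells of cluster 7 reached 200 CPM of Ntrk2 and none reached 200 CPM of Ntrk3, whereas all 16 cells of cluster 6 reached 200 CPM of Ntrk3. At 100 CPM, 10 of the 19 cells with both came from cluster 7. Whether the Trk genes exclude each other therefore turned on the threshold. These counts are descriptions without a test.

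Ntrk2 and Sort1 went together, with a Spearman correlation of 0.40 over 150 cells that was positive in 9 of 10 litters and 0.25 when cells were ranked within their cluster. It was 0.19 in hairy cells and 0.50 in glabrous cells. In the upper quartile of each gene, 18 cells were shared, beside 9.63 from the product of shares. Ngfr and Sort1 went apart, with a correlation of -0.40 over 150 cells, negative in 8 of 10 litters. It was -0.57 in hairy cells and -0.27 in glabrous cells, and -0.19 within clusters. The upper quartiles of Ngfr and Sort1 shared 2 cells, beside 9.63 from the product. The 3 pairs not yet named had correlations between -0.03 and 0.07. Points of such a correlation share litter, plate and depth, and the cells of a litter are not independent. With the pan-neuronal marker sum, Ngfr correlated at 0.47, Sort1 at -0.29, Ntrk2 at -0.30 and Ntrk3 at 0.08. The part of RNA from other cell types in these pairs was not tested.

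Many neurons carried several of the 4 genes. At 10 CPM or more, all 4 were found in 31.1% of hairy and 44.2% of glabrous cells. At 100 CPM or more, none of the 4 was reached in 40% of hairy and 12.5% of glabrous cells. Both Trk genes were under 10 CPM in 15 cells, of which 6 lay among the 16 of cluster 5 and 5 among the 10 of cluster 9, while none lay in clusters 2, 6 and 7. Of these 15 cells, 10 had Ngfr at 10 CPM or more.

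Ntrk2 moved with markers of satellite glia, the cells that wrap sensory neurons; glial cells are known to make the TrkB form without a kinase. Over 150 cells the Spearman correlation of Ntrk2 with the summed satellite glia markers was 0.68, and 0.65 within clusters. Outside cluster 7 it was 0.79, and in the 14 cells of cluster 7 it was -0.12. In 4 groups of cells ordered from low to high marker sum, the median of Ntrk2 was 0, 15.4, 59.6 and 144.8 CPM. In cluster 7 Ntrk2 was at 323 CPM or more at every marker sum, which ran from 377 to 5897 CPM. Of the 8 markers, 7 correlated with Ntrk2 at 0.54 to 0.64, and Scn7a did so at 0.03. The share of glial RNA in the Ntrk2 counts was not tested. Ntrk3, Ngfr and Sort1 had correlations of -0.04, -0.27 and 0.29 with the same sum.

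**Figure D3:**
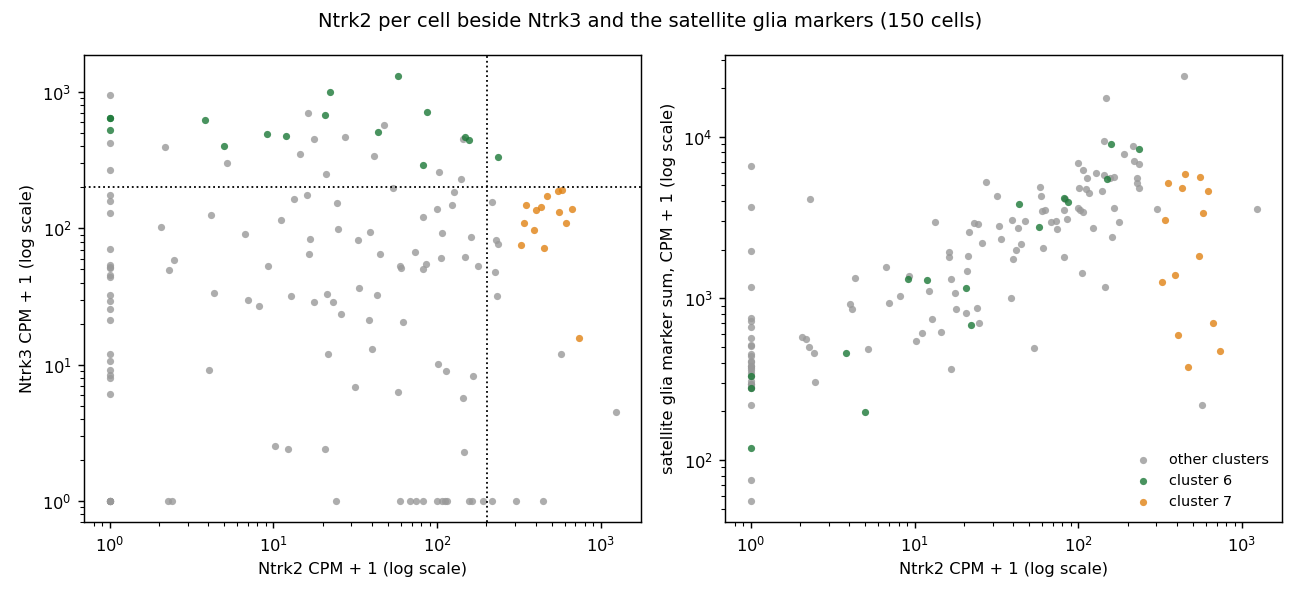
Each point is 1 of 150 cells, with Ntrk2 (CPM + 1, log scale) on the x axis against Ntrk3 on the left and the summed satellite glia markers on the right; dotted lines mark 200 CPM. A single cell lies above 200 CPM for both Trk genes, and Ntrk2 climbs with the marker sum except in cluster 7 (orange).

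The genes most like each member over 150 cells, among 9988 genes, differed between the 4. For Ntrk2 they were Adamts5, a secreted protease, at a Spearman correlation of 0.77, Ppp1r14c at 0.71, Bcan, which encodes the matrix proteoglycan brevican, at 0.69, Tbx2 at 0.68 and Prss12 at 0.68. Lowest for Ntrk2 were Kctd8 at -0.55, Acot7 at -0.52 and Pkib at -0.50. For Ntrk3 they were the zinc-finger gene Zfp423 at 0.66, the sodium channel gene Scn1a at 0.62, Adcy1 at 0.62, Tafa2 at 0.61 and Htr5b at 0.61, and lowest were Prkcd at -0.60, Emp3 at -0.55 and Rnase4 at -0.54. For Ngfr they included Pcdhac1 at 0.73, the serotonin-gated channel gene Htr3a at 0.73, Kcnk4 at 0.72 and Chga at 0.71, and lowest were Uaca at -0.59, Macroh2a1 at -0.58 and Tpm4 at -0.58. For Sort1 they included Pdia5 at 0.59, Syt1 at 0.57, Gsn at 0.57 and Ndrg2 at 0.55, and lowest were Serpinb1a at -0.59, Hopx at -0.58 and Spock3 at -0.58. Within clusters all of these were closer to 0, for example 0.60 for Adamts5 with Ntrk2 and 0.06 for Syt1 with Sort1.

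Hairy and glabrous neurons were compared on counts summed per litter and skin type, with edgeR's quasi-likelihood test, the litter as a block and Benjamini-Hochberg adjustment. None of the 4 genes passed an adjusted p of 0.05, a threshold that 16 of 15048 genes (0.106%) passed. Litter by litter (C_D, then E_F_G, then H, K, L, O and finally P_Q), Ntrk3 sums were 73.2, 49.7, 29.5, 80.1, 36.1, 56.6 and 41.5 CPM in hairy neurons, against 57.8, 166, 104.8, 136.6, 183, 409 and 172 CPM in glabrous neurons. Ntrk3 was lower in hairy neurons in 6 of 7 litters, litter C_D being the exception, and the groups overlapped through that litter's glabrous sum. The means were 52.4 ± 18.8 CPM in hairy and 176 ± 111.7 CPM in glabrous neurons (SD, n = 7 litters each), a log2 change of -1.67 ± 0.36 (SE; unadjusted p = 0.000841, edgeR adjusted p = 0.165). Lower values at an unadjusted p under 0.05 were found for 864 of the genes tested (5.74%), and higher values for 574 (3.81%). The call for Ntrk3 turned on the method: it passed with DESeq2 (adjusted p = 0.000389), with no filter on low counts (adjusted p = 6.91e-07) and without litter C_D (edgeR adjusted p = 0.0344). Over all genes, 376 of 15048 passed with DESeq2, 342 of 32962 with no filter and 26 of 14897 without litter C_D. Within plates the log2 change of Ntrk3 was -1.09 ± 0.49 on plate 1 (3 litters) and -2.14 ± 0.32 on plate 2 (4 litters), and that of Ngfr was -0.99 ± 0.40 and -0.65 ± 0.39, none past the adjusted threshold.

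Ngfr sums were 155, 52.9, 26.1, 111.7, 28.6, 80.04 and 106.1 CPM in hairy neurons, against 146.3, 128.8, 93.1, 156, 104.3, 85.7 and 118.3 CPM in glabrous neurons of the same litters. They were lower in hairy neurons in 6 of 7 litters, and the groups overlapped. The log2 change was -0.82 ± 0.30 (SE; unadjusted p = 0.0218, edgeR adjusted p = 0.410), and among the alternatives run it passed only with no filter on low counts (edgeR adjusted p = 0.0370). In that setting 342 of 32962 genes passed. Sort1 averaged 33.8 ± 13.04 CPM in hairy and 22.6 ± 11.98 CPM in glabrous neurons (SD, n = 7 litters each), higher in hairy in 6 of 7 litters, with a log2 change of 0.61 ± 0.34 (SE, edgeR adjusted p = 0.621).

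Ntrk2 had no steady direction. Its sums were 283, 33.9, 51.5, 47.4, 20.3, 118.1 and 98.3 CPM in hairy neurons, against 16.5, 151, 135.95, 56.8, 523, 25.3 and 94.9 CPM in glabrous neurons. It was lower in hairy neurons in 4 of 7 litters, and the log2 change of -0.36 ± 0.98 (SE, edgeR adjusted p = 0.942) turned to 0.29 without litter L, whose glabrous sum came from 3 cells, and to 0.079 without litter E_F_G. With the summed markers of other cell types as a covariate it was -1.33 ± 0.86 (SE, edgeR adjusted p = 0.596).

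**Figure D4:**
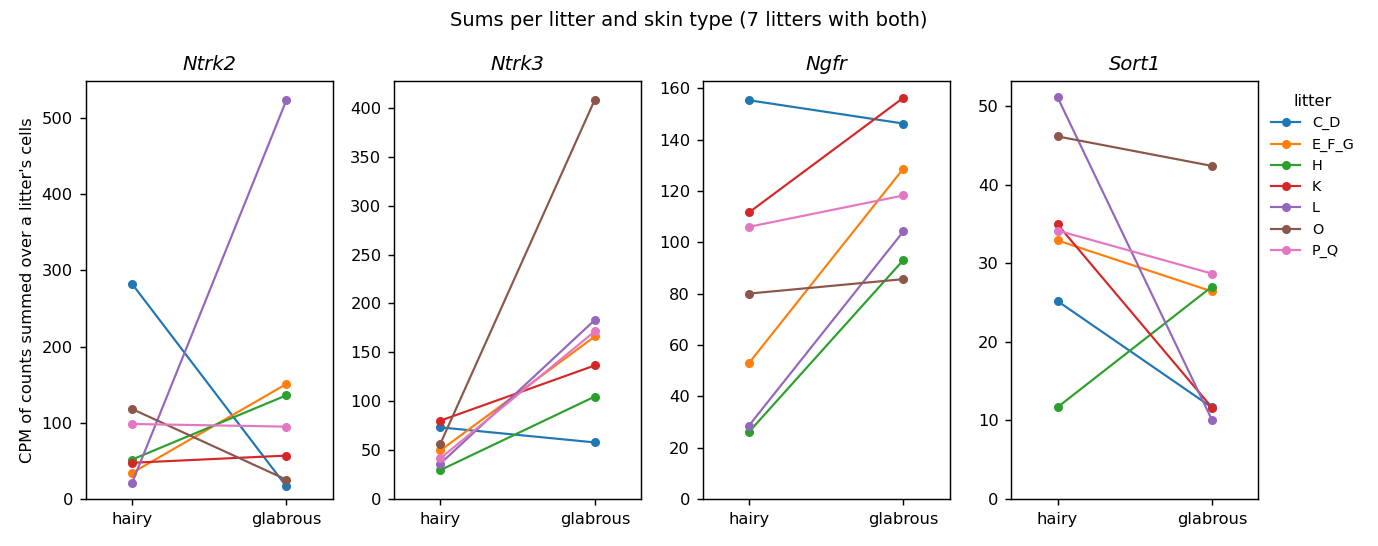
CPM of counts summed over a litter's cells, hairy left and glabrous right, with 1 line for each of 7 litters. Ntrk3 and Ngfr lie lower in hairy neurons in 6 of 7 litters, while the Ntrk2 lines cross.

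The log2 change of Ntrk3 differed between fits by the cells and terms used. The part of the mix of clusters in the skin type difference was not tested. Clusters 6 and 7 held 2 of the hairy and 28 of the glabrous cells. Cluster 6 held 0 of 45 hairy cells, which by counting error alone allows a share of up to 6.67%; these cells came from 9 litters, 15 of them from 1 litter, and are not independent. In cluster 7 Ntrk3 averaged 122.7 CPM in the 2 hairy cells and 122.6 CPM in the 12 glabrous cells. Fits without clusters 6 and 7 and without clusters 4 and 9 were added after the data had been seen. Those clusters were picked by their levels of the Trk genes (6 and 7) and of Ngfr (4 and 9). Leaving out cluster 6, which has the highest Ntrk3 and no hairy cell, lowers the glabrous sums by construction. For the same reason cluster 6 gives no skin type contrast of its own where the model holds the cluster. Without clusters 6 and 7, the log2 change of Ntrk3 was 0.83 ± 0.96 (SE), higher in hairy neurons in 3 and lower in 3 of 6 litters. With the cluster as a term in the model it was -0.06 ± 0.54 (SE, edgeR adjusted p = 0.995), Ngfr had -0.77 ± 0.29 (SE; unadjusted p = 0.0104, edgeR adjusted p = 0.480), Ntrk2 had -0.22 ± 0.50 and Sort1 0.32 ± 0.34. With the coarser clusters of resolution 0.5, Ntrk3 had -0.39 ± 0.56 and Ngfr -0.37 ± 0.26 (SE, edgeR adjusted p = 0.980 and 0.938). In the model at the main resolution 11 of 13544 genes (0.0812%) passed, and in both several sums of 1 litter enter as separate units, so the p-values may be too small. The Ngfr change was -0.29 ± 0.28 (SE) without clusters 4 and 9, in which Ngfr is lowest and which held 15 of the hairy and 12 of the glabrous cells.

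Among single classes and clusters, the peptidergic-like class and cluster 2 were tested, and none of the 4 genes passed in either. The A-fibre-like class had 1 litter with both skin types and could not be tested. In the peptidergic-like class, 0 of 12138 genes (0%) passed with edgeR, 634 had an unadjusted p under 0.05 and DESeq2 called 48. There the log2 changes were -0.27 ± 1.31 for Ntrk2, 0.72 ± 0.52 for Ntrk3, -0.42 ± 0.30 for Ngfr and 0.25 ± 0.77 for Sort1 (SE, 4 litters; 3 of the 8 sums came from 1 cell). This class joined clusters 3 and 5, whose Ngfr medians over cells are given without a test. The Ngfr medians in cluster 3 were 140.7 CPM in 7 hairy and 155.4 CPM in 10 glabrous cells. In cluster 5 they were 15.4 CPM in 9 hairy and 190.1 CPM in 7 glabrous cells. Only 1 litter held both skin types in cluster 5, so skin type and litter cannot be told apart there. Cluster 2 and the sum of clusters 2, 6 and 7 were added after the data had been seen. In cluster 2 (8 of 10970 genes, 0.0729%) Ntrk3 had -0.26 ± 1.00 and Ngfr 0.01 ± 0.28 (SE, 5 litters; 7 of the 10 sums came from 1 cell), and in clusters 2, 6 and 7 (3 of 11819 genes, 0.0254%) they had -0.83 ± 0.52 and -0.12 ± 0.24 (SE, 6 litters; 6 of the 12 sums came from 1 cell).

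**Figure D5:**
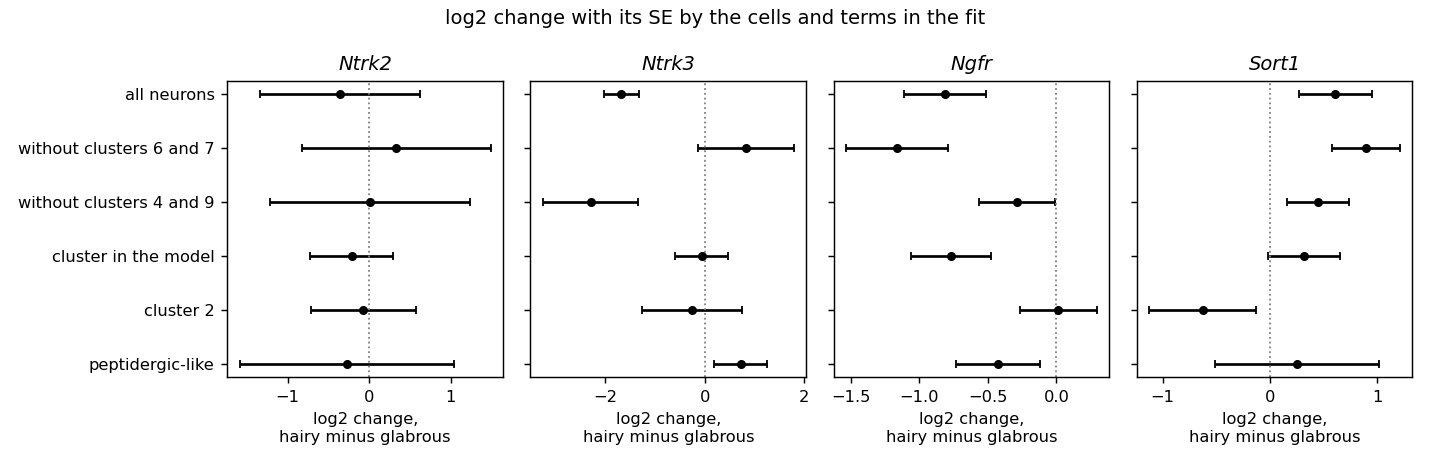
log2 change (hairy minus glabrous) with its SE for each gene, by the cells or terms in the fit, on x axes that differ between genes. Ntrk3 is -1.67 over all neurons, 0.83 without clusters 6 and 7 and -0.06 with the cluster in the model. Cluster 6 has the highest Ntrk3 and no hairy cell. Fits that leave out clusters and that of cluster 2 were added after the data had been seen.

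The share of cells at 100 CPM or more differed in the direction of the sums for Ntrk3 and Ngfr but not for Ntrk2. For Sort1 it did so through 2 litters alone. For Ntrk3 it was 22.6 ± 20.9% in hairy and 43.8 ± 12.3% in glabrous neurons (SD over 7 litters), lower in 6 of 7 litters (exact two-sided sign-flip permutation, unadjusted p = 0.0469, Benjamini-Hochberg adjusted p = 0.1875). All other permutation p-values given for shares are unadjusted unless called adjusted. The adjusted permutation p was 0.125 for Ntrk3 at 200 CPM and 0.1875 for Ngfr at 100 CPM. No gene passed an adjusted p of 0.05 at any of these thresholds. At 200 CPM no hairy cell of these litters passed, against 26.3 ± 18.6% of glabrous cells (exact permutation p = 0.0312, the smallest possible with 1 litter at 0 in both). The 2 hairy cells over 200 CPM, at 251.6 and 456 CPM, came from litter M, which is not among these litters. At 50 CPM the Ntrk3 difference was -8.75 points, with 4 of 7 litters higher in hairy neurons (exact permutation p = 0.344). At 10 CPM it was -1.86 points, with 3 of 7 litters higher in hairy neurons (exact permutation p = 0.797). For Ngfr the share at 100 CPM was 34.5 ± 35.02% in hairy and 56.7 ± 22.2% in glabrous neurons (exact permutation p = 0.0938). For Ntrk2 it was 39.8 ± 31.8% in hairy and 32.003 ± 32.9% in glabrous neurons (exact permutation p = 0.719), and for Sort1 4.52 ± 9.36% in hairy and 0% in glabrous neurons (exact permutation p = 0.5).

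Of 65 other genes of the pathway, 63 were tested and none passed the adjusted threshold; at an unadjusted p under 0.05, 2 were higher (3.17%, beside 3.81% of all genes) and 6 lower (9.52%, beside 5.74% of all genes) in hairy neurons. Among ligands, Bdnf averaged 83.1 ± 30.3 CPM in hairy and 134.4 ± 37.7 CPM in glabrous neurons, a log2 change of -0.77 ± 0.25, and Ntf3, which encodes neurotrophin 3, had -0.48 ± 0.20. The 2 ligands tested had a median of -0.63, beside -0.04 over all genes. Among 10 partners (median -0.24), Sorl1, a relative of sortilin, averaged 42.1 ± 16.8 CPM in hairy and 105.1 ± 29.9 CPM in glabrous neurons, lower in 7 of 7 litters, with a log2 change of -1.42 ± 0.26 (unadjusted p = 0.000301, edgeR adjusted p = 0.128). Among 22 Trk adaptors and kinases (median -0.11), Sos1 had -0.36 ± 0.16. The 11 p75 adaptors and proteases had a median of 0.13. Among 9 trafficking genes (median -0.08), Sh3gl2 had -0.96 ± 0.37, and among 9 Trk-responsive genes (median -0.13), Dusp6, a phosphatase of ERK, had 0.97 ± 0.29, higher in 7 of 7 litters, and Etv5 had -0.53 ± 0.21.

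With the cluster in the model, none of the 63 passed, and at an unadjusted p under 0.05 there were 1 higher (1.59%, beside 4.05% of all genes) and 4 lower (6.35%, beside 3.33% of all genes). Sorl1 had -1.47 ± 0.37 (edgeR adjusted p = 0.0974), Ntf3 -1.02 ± 0.44, Sorcs3 -0.94 ± 0.41, Sh3gl2 -0.72 ± 0.31 and Traf6 0.84 ± 0.34. Where a list held none, the smallest p belonged to Pik3r1 (0.60 ± 0.31) and Plcg1 (0.41 ± 0.25), and to Dusp6 (0.57 ± 0.30) and Etv5 (-0.26 ± 0.24).

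Age was compared between litters in glabrous neurons, 7 at day 5 and 2 at day 4. Ntrk2 averaged 148.3 ± 174 CPM at day 5 and 75.8 ± 26.9 CPM at day 4, and Ntrk3 196 ± 112.4 CPM at day 5 and 154 ± 24.7 CPM at day 4. Ngfr averaged 109.2 ± 21.2 CPM at day 5 and 137.3 ± 26.9 CPM at day 4, and Sort1 24.1 ± 11.1 CPM at day 5 and 20.2 ± 12.1 CPM at day 4. All 4 overlapped between ages, with log2 changes of 1.12 ± 1.16, 0.37 ± 0.54, -0.30 ± 0.23 and 0.29 ± 0.48. Without litter L, whose glabrous sum came from 3 cells, the change of Ntrk2 was 0.19 ± 0.71. The test passed 0 of 15185 genes (0%) with edgeR, with 422 at an unadjusted p under 0.05 (1.82% of genes higher and 0.961% lower) and 3 called by DESeq2, so with 2 litters at day 4 a difference may have been missed. Of the day 4 glabrous cells, litter K had 4 on plate 1 and 3 on plate 2 and litter P_Q had all 7 on plate 2. On plate 2 alone the changes of Ntrk2 and Ntrk3 were 2.37 ± 1.38 and 0.91 ± 0.33 (edgeR adjusted p = 0.858 for both). Among pathway genes, Rtn4r, the Nogo receptor and a partner of p75NTR, was lower at day 5 at -0.54 ± 0.21 (unadjusted p = 0.0295, edgeR adjusted p = 1.00). In the lists without such a gene the smallest p belonged to Ntf3 (-0.26) and Bdnf (-0.24), Crkl (-0.61) and Shc3 (0.93), Adam17 (-0.38), Rab11a (0.13) and Rab5a (0.06), and Egr1 (1.34) and Etv4 (0.70). The skin type difference did not pass a test of its change with age for any of 15048 genes (0%) in edgeR; 27 genes were higher and 94 lower at an unadjusted p under 0.05. The interaction terms were -0.49 ± 2.07 for Ntrk2, -0.40 ± 0.79 for Ntrk3, -0.74 ± 0.64 for Ngfr and -0.45 ± 0.78 for Sort1.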

How the data were processed

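Smart-seq libraries of single neurons were used, 1 cell per sample. The authors deposited 1 table of gene-level expected counts from Salmon, rounded and with no scaling between cells; FastQC, cutadapt, Salmon and mm10 are named in the submitters' processing notes, without versions. No source says whether they were scaled by transcript length. The members and gene lists were chosen with earlier results of these data known.

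Cells were clustered with scanpy 1.11.5 (igraph 0.11.9; 2000 variable genes without the 4 members, 20 principal components, 10 neighbours, Leiden resolution 1). A cluster was named when at least 3 class markers were enriched (log2 over 1, in at least 50% of cells) with a margin of 2. No doublets were called. The highest correlation between 2 cells was 0.966.

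Sums over the cells of a litter and skin (at least 2 cells each; at least 1 within a class, cluster or cluster term) were tested with edgeR 4.0.16 (R 4.3.3, limma 3.58.1): TMM, filterByExpr given the whole design, litter as a block, Benjamini-Hochberg at 0.05. The SE is the log2 change over the square root of F. Filtering by skin type alone was added after the results had been seen. Alternatives used DESeq2 1.42.0, voomLmFit and limma on mean log2(CPM + 1). Litters are named by the labels, which pairs the sums; correlations of their deviations were -0.013, 0.1, 0.242, 0.25, -0.056, 0.06 and 0.148. The procedure was tested on simulated data. Named genes were the members, pathway genes with an unadjusted p under 0.05 (else the 2 smallest p of a list), and the 5 most and 3 least correlated genes with a mean of at least 10 CPM and a count in at least 50% of cells. Some genes that this rule names are not reported here.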

Additional observations from a re-analysis of the deposited data

Results flagged for a closer look

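Among 7 litters, the glabrous sum of Ntrk2 in litter L, 523 CPM, stood far from the others. It did so again among the 9 glabrous litters used for age, and it came from 3 cells. These cells also had the highest glial marker sums of the 7 glabrous sums. Those were 4301 CPM for satellite glia and 7440 CPM for myelinating Schwann cells, and their part in the Ntrk2 level was not tested. The glabrous sum of Ntrk3 in litter O, 409 CPM, stood apart among 7 litters, and 3 of its 5 glabrous cells lay in cluster 6. The hairy sum of Ntrk2 in litter C_D, 283 CPM, stood apart among 7 litters; it came from 2 cells, of which 1 lay in cluster 7. Each was flagged by Dixon's ratio of the gap to the range. Chance marks about 1 in 20 groups in this way only if the sums are normally distributed, which was not tested.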

How the results depend on the processing

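Over all neurons, 16 of 15048 genes were called. With as many genes tested, the number called was 376 with DESeq2, 32 with voomLmFit and 1 with satellite glia markers as a covariate. It was 342 of 32962 with no filter, 26 of 14690 with at least 3 cells per sum and 1 of 15451 with at least 1 cell. It was 0 with all other-cell-type markers as a covariate, on plate 1 or plate 2 alone, without C-fibre-like cells, and without clusters 6 and 7 or 4 and 9, and 0 to 26 with 1 litter left out. Filtering by skin type alone, chosen after the results had been seen, gave 12 calls of 12852 genes and -1.65 for Ntrk3 (edgeR adjusted p = 0.170). With no replicate block, Ntrk3 had -1.76 (edgeR adjusted p = 0.0620) and 11 genes were called; the pairing changed no call of the 4 genes. Ntrk3 passed at -1.65 with DESeq2, at -1.68 with no filter (Ngfr at -0.83), and ranged from -1.98 to -1.47 with 1 litter left out.

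Directions turned for Ntrk2 over all neurons (0.48 with mean log2 levels, 0.33 without clusters 6 and 7, 0.0083 without clusters 4 and 9, -0.99 to 0.29 with 1 litter left out) and for Ntrk3 without clusters 6 and 7 (0.83). Where the model held the cluster, Ntrk2 turned to 0.063 with satellite glia markers added (18 calls, against 11), and Ntrk3 to 0.28 at resolution 1.5 and 0.083 with members kept in clustering; resolution 0.5 gave 6 calls, and Etv5 turned to 0.070 at resolution 1.5. With 1 litter left out, the ranges crossed 0 in the peptidergic-like class for Ntrk2 (-1.57 to 0.95) and Sort1 (-0.28 to 0.98), in cluster 2 for Ntrk2 (-0.72 to 0.45), Ntrk3 (-0.96 to 0.61) and Ngfr (-0.20 to 0.20), and in clusters 2, 6 and 7 for Ngfr (-0.30 to 0.0069) and Sort1 (-1.08 to 0.082). For age, Sort1 was -0.051 in hairy cells and -0.20 to 1.020 with 1 litter left out, Bdnf 0.52, Etv4 -1.34 and Shc3 -0.53 in hairy cells, and the calls were 3 with DESeq2 and 0 to 1 with 1 litter left out. For shares, the Ntrk2 difference was -5.30 points at 200 CPM, -4.68 with at least 1 cell and -5.53 to 25.7 with 1 litter left out, and that of Sort1 was -0.47 at 10 CPM and 0 at 200 CPM. Causes were not tested, except that fewer litters or genes enter some fits. Few hairy cells per litter limit every comparison.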

Other observations

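The 1 cell labelled with both skin types entered no comparison. It had 0 CPM of Ntrk2, 266 CPM of Ntrk3, 140 CPM of Ngfr and 18.8 CPM of Sort1.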
